A study of Mus musculus with 6 samples.

Results

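The genes described here are 50 that serve the mitotic checkpoint, the kinetochore, chromosome condensation and the division of the cell. They were chosen by name from known function, but with earlier results of these data known. All 50 were found, on 1 row each, among the 25407 gene rows of the deposited table. RNA came from CT26.WT, an established line of mouse colon carcinoma cells, in 3 control libraries and 3 libraries from cells treated with Cu₂O@AuMn@HA, NaHS and NIR together. NaHS is a donor of hydrogen sulfide and NIR is near-infrared light. The sources used here give no dose, exposure time or harvest time, and the libraries hold no arm with 1 component alone. They also do not say whether the 3 libraries of a group are separate cultures. The p-values below therefore measure the spread between these libraries, which may be technical.

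When a cell enters mitosis, the Aurora and Polo kinases drive the building of the spindle, condensin compacts the chromosomes, and kinetochores assemble on centromeres to hold microtubules. Kinetochores that hold no microtubule keep the checkpoint on, which blocks Cdc20, the activator of the ubiquitin ligase called the anaphase-promoting complex, until all chromosomes are attached. Securin and cyclin B are then destroyed, separase cuts cohesin, and the cell divides. Most of these genes are transcribed late in the cell cycle through the MuvB complex with the factors B-Myb and FoxM1, and they are known as markers of proliferating cells in colon carcinoma as in other tumours.

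Totals were 62328377 to 81821380 estimated counts per library. The 8 epithelial markers summed to 153 to 169 FPKM (fragments per transcript length and sequencing depth) in the controls, against 224 to 238 after treatment. The keratin gene Krt18 was at 58.6 to 69.0 FPKM in the controls and 152 to 172 after treatment, and Krt20 at 87.1 to 93.1 and 53.4 to 61.8. Epcam and Cdh1 were at 0 in all controls and at most at 0.0609 in treated libraries, so these defining epithelial genes were absent or nearly so from the labelled carcinoma line. The sum of 3 leukocyte markers was 27.4 to 28.2 FPKM in control and 54.8 to 64.3 in treated libraries, nearly all of it Cd68, with Ptprc at 0 in 5 of the 6 libraries. The 4 fibroblast markers summed to 99.2 to 109 and 65.0 to 73.8 FPKM, and the 3 endothelial markers to at most 0.0680. The part of these markers in the results below was not tested.

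In treated cells most of these mitotic genes were lower. The 50 genes together took 0.447% to 0.461% of the estimated counts of each control library and 0.191% to 0.213% of those of each treated library. In edgeR's quasi-likelihood test with Benjamini-Hochberg adjustment over 16212 rows, 33 of the 50 fell and 2 rose at an adjusted p under 0.05, against 23.5% of all tested rows that were called lower and 23.0% that were called higher. All 50 passed the filter on low counts. Their median log2 fold change, treated over control, was −0.93, beside 0.06 over all tested rows. In 24 members the fall was at least 1 on the log2 scale, which held for 5.18% of tested rows. Every treated library was below every control library in FPKM for 31 members (27.1% of tested rows), every treated library was above for 3 (30.4%), and the groups overlapped for 16.

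**Figure D1:**
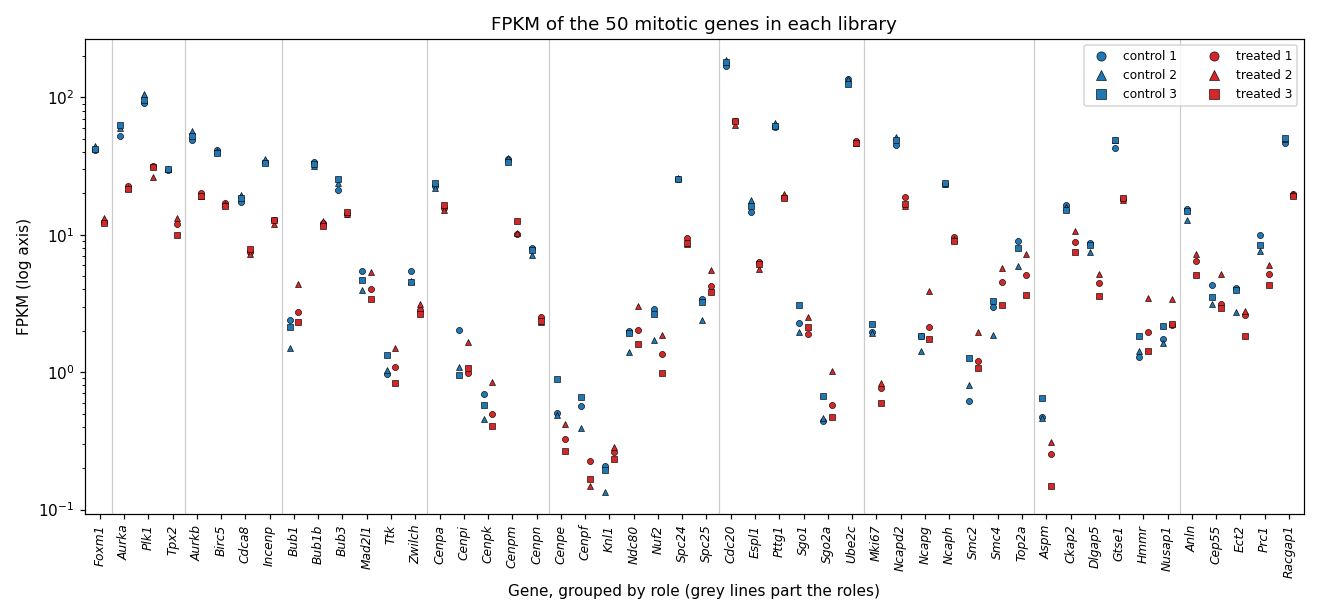
FPKM (log axis) of each of the 50 genes in the 3 control (blue) and 3 treated (red) libraries, with genes grouped by role and grey lines between roles. The red points lie below the blue ones for 31 genes, and the genes whose groups overlap are mostly those at low FPKM.

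The fall reached every abundant member and fewer of the others. The split at a mean of 10 FPKM over all libraries was chosen after the values were seen. All 23 members at or above it fell, with a median log2 fold change of −1.46 (−1.79 to −0.57, SD 0.30), which is a 2.75-fold reduction. Of all 4322 tested rows at that level, 41.3% were called lower and 26.3% higher. Of the 27 members below that level, 10 fell and 2 rose, with a median of −0.16 and an SD of 0.75. Of all 11890 tested rows at that level, 17.1% were called lower and 21.9% higher.

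**Figure D2:**
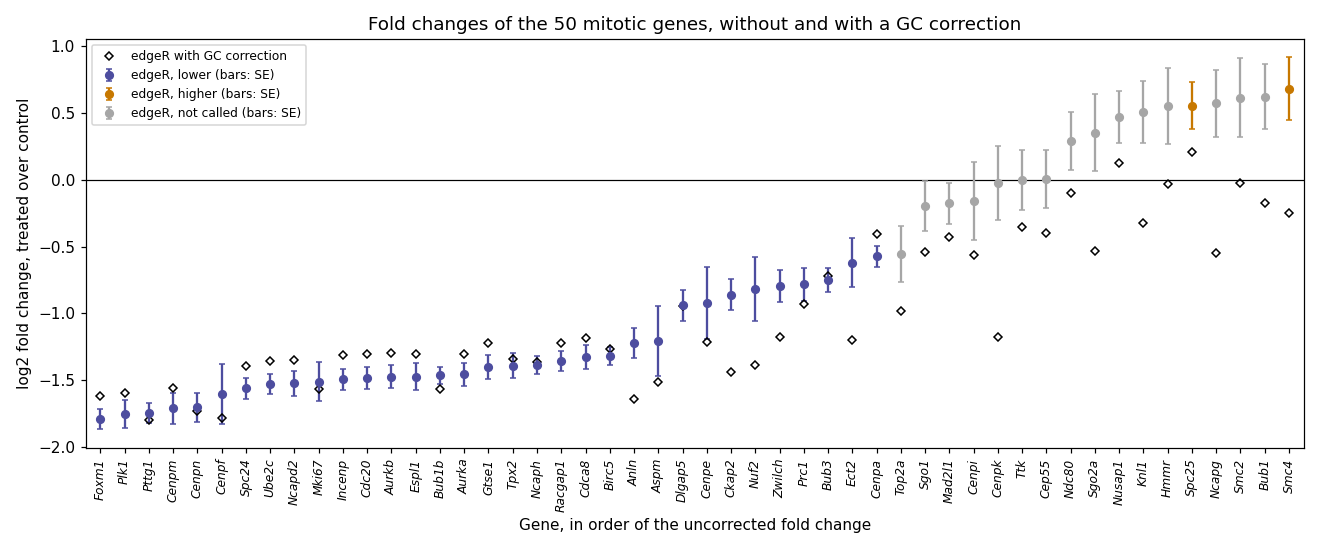
Log2 fold change (treated over control) of the 50 genes in order, with bars for the standard error of the edgeR fit and open diamonds for the fit with a GC correction. The lowest filled point is Foxm1 at −1.79 and the highest is Smc4 at 0.68, and the open diamonds of most genes at the right end lie below 0.

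Promoters are shown as a description of the members. RefSeq windows of 300 bases (250 before the start site and 50 from it, build GRCm38.p6) matched 42 of the 50 members by symbol, with 50 windows in all, since some genes have several. Aurkb, Dlgap5, Foxm1, Incenp, Smc4, Spc24, Tpx2 and Zwilch had no entry. The windows were searched on both strands for the cell cycle homology region (CHR, TTTGAA), the element that MuvB binds, and for the CCAAT box (CCAAT), the element of the factor NF-Y. Adjacent matches can share letters, and other forms of either element were not searched. A CHR was in 64.0% of the members' windows and in 17.9% of the 32851 windows of the table, and it lay within 50 bases of the start site in 56.0% and 4.94%. A CCAAT box was in 78.0% and 37.4%, and both motifs in 54.0% and 6.95%. Most of these genes are known to be transcribed through MuvB, so a high CHR share comes with their choice. These shares do not bear on the treatment. The 28 members with a CHR had log2 fold changes from −1.75 to 0.61, with 19 called lower, and the 14 with a window but no CHR had −1.75 to 0.62, with 7 called lower, so the ranges overlapped. The medians were −1.03 and −0.51, and of the 8 members with no entry 7 were called lower and 1 higher. The difference between members with and without a CHR was not tested. A match is a run of letters, not a measured binding site. The windows of Plk1, Pttg1 and Cenpm, among the members that fell most, and of Bub1, among those with the highest fold change, are printed with those of Cdc20 and Ube2c, which were added for their CHR near the start site. Capitals mark CHR and CCAAT letters on either strand.
Plk1, chr7:122159185-122159484, plus strand: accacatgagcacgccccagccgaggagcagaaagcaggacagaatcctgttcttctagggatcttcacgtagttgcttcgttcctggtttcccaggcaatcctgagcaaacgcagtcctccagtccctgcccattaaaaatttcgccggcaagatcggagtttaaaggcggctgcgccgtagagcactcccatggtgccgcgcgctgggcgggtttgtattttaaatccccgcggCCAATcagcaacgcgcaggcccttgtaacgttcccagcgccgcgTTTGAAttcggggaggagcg
Pttg1, chr11:43425932-43426231, minus strand: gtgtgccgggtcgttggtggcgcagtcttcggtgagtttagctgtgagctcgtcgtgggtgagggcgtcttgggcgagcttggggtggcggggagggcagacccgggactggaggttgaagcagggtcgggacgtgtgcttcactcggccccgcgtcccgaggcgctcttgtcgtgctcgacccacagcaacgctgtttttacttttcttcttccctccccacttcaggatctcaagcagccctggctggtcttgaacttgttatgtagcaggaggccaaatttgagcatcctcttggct
Cenpm, chr15:82244287-82244586, minus strand: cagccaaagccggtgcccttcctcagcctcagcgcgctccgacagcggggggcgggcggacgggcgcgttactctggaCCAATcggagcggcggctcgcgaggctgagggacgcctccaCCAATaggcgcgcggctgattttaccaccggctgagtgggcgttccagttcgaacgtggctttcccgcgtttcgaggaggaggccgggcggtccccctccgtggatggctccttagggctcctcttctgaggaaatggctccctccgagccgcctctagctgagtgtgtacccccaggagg
Bub1, chr2:127831810-127832109, minus strand: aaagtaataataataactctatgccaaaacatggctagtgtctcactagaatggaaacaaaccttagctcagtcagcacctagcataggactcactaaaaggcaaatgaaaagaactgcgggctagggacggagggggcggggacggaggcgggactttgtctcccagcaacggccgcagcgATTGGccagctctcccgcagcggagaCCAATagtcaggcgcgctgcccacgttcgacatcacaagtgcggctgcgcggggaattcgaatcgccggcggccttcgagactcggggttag
Cdc20, chr4:118437294-118437593, minus strand: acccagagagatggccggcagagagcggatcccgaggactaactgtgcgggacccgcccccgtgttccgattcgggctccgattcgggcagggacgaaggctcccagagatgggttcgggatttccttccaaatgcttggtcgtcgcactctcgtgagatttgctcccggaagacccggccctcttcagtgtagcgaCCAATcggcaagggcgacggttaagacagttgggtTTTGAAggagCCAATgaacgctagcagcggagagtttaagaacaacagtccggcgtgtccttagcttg
Ube2c, chr2:164769679-164769978, plus strand: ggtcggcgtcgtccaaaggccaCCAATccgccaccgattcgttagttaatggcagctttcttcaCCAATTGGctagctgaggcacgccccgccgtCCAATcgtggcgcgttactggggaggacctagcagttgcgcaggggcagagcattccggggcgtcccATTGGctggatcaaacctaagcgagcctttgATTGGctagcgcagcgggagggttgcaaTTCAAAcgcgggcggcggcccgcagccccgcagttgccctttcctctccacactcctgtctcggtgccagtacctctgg
Plk1 has its CHR after the start site and Cdc20 and Ube2c before it. Ube2c has 6 CCAAT matches, and Pttg1 shows neither motif in this window. Bub1 and Cenpm have 2 CCAAT boxes each and no TTTGAA.

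Foxm1, the transcription factor of late cell cycle genes, fell most of all members. Foxm1 (Foxm1, ENSMUSG00000001517, chromosome 6, 128339930 to 128353109, plus strand, build not given) was at 41.7, 44.3 and 41.8 FPKM in controls 1 to 3 and 12.5, 13.2 and 12.2 in treated 1 to 3. The groups did not come near each other. Its log2 fold change was −1.79 ± 0.08 (SE), with an edgeR adjusted p = 6.57e-07, which is a 3.46-fold reduction. In what follows a value in parentheses after a gene is its log2 fold change ± SE from the same fit, and FPKM means are given ± SD with n = 3.

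All 3 members among the kinases and the Aurora A activator fell. The Polo kinase gene Plk1 was at 91.4, 106 and 96.3 FPKM in controls 1 to 3 and 31.7, 26.5 and 31.3 in treated 1 to 3, with no overlap, and it fell (−1.75 ± 0.11, edgeR adjusted p = 2.46e-06). Aurka, the Aurora kinase of the spindle poles, was at 52.7, 60.0 and 63.4 FPKM in controls 1 to 3 and 22.5, 21.8 and 21.7 in treated 1 to 3. Its log2 fold change was −1.46 ± 0.09, and the treated libraries lay closer to each other than the controls did. Tpx2, which binds Aurora A and switches it on at spindle microtubules, fell from 29.9 ± 0.484 to 11.7 ± 1.7 FPKM (−1.39 ± 0.10).

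All 4 genes of the chromosomal passenger complex fell, and by nearly the same amount. This complex corrects wrong attachments and later acts in cytokinesis. Its kinase gene Aurkb was at 49.0, 56.7 and 52.5 FPKM in controls 1 to 3 and 20.3, 19.1 and 19.1 in treated 1 to 3, a log2 fold change of −1.47 ± 0.09. The scaffold gene Incenp was at 33.9, 35.4 and 33.4 FPKM in controls 1 to 3 and 12.8, 11.9 and 12.7 in treated 1 to 3, a log2 fold change of −1.49 ± 0.08. Survivin (Birc5), which with borealin places the complex on centromeres, was at 41.1, 40.5 and 39.5 FPKM in controls 1 to 3 and 16.9, 16.6 and 16.3 in treated 1 to 3. All controls of these genes were above all treated libraries. Birc5 had a log2 fold change of −1.32 ± 0.07 and borealin (Cdca8) one of −1.33 ± 0.09, so the 4 fold changes ran from −1.49 to −1.32.

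Checkpoint genes were divided: 3 of 6 fell, 0 rose and 3 were not called. Bub1b (BubR1), a part of the complex that inhibits the anaphase-promoting complex, was at 33.6, 31.4 and 32.8 FPKM in controls 1 to 3 and 12.3, 12.5 and 11.6 in treated 1 to 3. It fell (−1.46 ± 0.06, edgeR adjusted p = 6.71e-07) with no overlap. Bub3, its binding partner, was at 21.2, 24.0 and 25.3 FPKM in controls 1 to 3 and 14.1, 14.2 and 14.6 in treated 1 to 3, and fell less (−0.75 ± 0.09). Zwilch, which with its partners recruits dynein and Mad1 to kinetochores, fell from 4.84 ± 0.497 to 2.85 ± 0.245 FPKM (−0.79 ± 0.12). The kinase gene Bub1, by contrast, was at 2.38, 1.49 and 2.13 FPKM in controls 1 to 3 and 2.74, 4.4 and 2.33 in treated 1 to 3. Treated 2 was the highest library and the groups overlapped, and the log2 fold change of 0.62 ± 0.24 did not pass (edgeR adjusted p = 0.0569). Bub1 passed as higher in 4 of 19 alternatives, among them without treated 3 (0.78), and was at −0.17 after the GC correction described below. Mad2l1 (Mad2), which binds and holds Cdc20, was at 4.69 ± 0.714 and 4.25 ± 0.986 FPKM (−0.18 ± 0.15, edgeR adjusted p = 0.377), and was called lower after the GC correction (−0.43), without treated 2 (−0.38) and without either library numbered 2 (−0.45). Ttk (Mps1), the kinase that starts the checkpoint signal, was at 1.11 ± 0.189 and 1.14 ± 0.328 FPKM, with a log2 fold change of −0.0026 ± 0.22.

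At the centromere and inner kinetochore, 3 of 5 genes fell. Cenpm was at 35.4, 36.4 and 33.8 FPKM in controls 1 to 3 and 10.1, 10.4 and 12.5 in treated 1 to 3, a log2 fold change of −1.71 ± 0.11. Cenpn, whose protein reads the centromeric nucleosome, was at 8.03, 7.1 and 7.79 FPKM in controls 1 to 3 and 2.52, 2.33 and 2.36 in treated 1 to 3, a log2 fold change of −1.70 ± 0.11. The reductions were 3.27-fold and 3.25-fold, with no overlap in either gene. Cenpa, the histone variant that marks centromeres, fell least of the members that fell, from 22.9 ± 0.972 to 15.8 ± 0.748 FPKM (−0.57 ± 0.08, edgeR adjusted p = 0.000224). The inner kinetochore genes Cenpi and Cenpk did not pass. Cenpi was at 1.35 ± 0.581 and 1.24 ± 0.364 FPKM (−0.16 ± 0.29). Cenpk was at 0.577 ± 0.118 and 0.582 ± 0.233 FPKM (−0.02 ± 0.28), but was called lower after the GC correction, at −1.18. Its row overlaps Ppwd1 on the opposite strand, at a mean of 0.521 FPKM, and whether the counting used the strand is not given.

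In the outer kinetochore, 4 of 7 genes fell and 1 rose, and the 4 subunits of the NDC80 complex, the main microtubule anchor, did not move alike. Spc24 was at 25.4, 25.7 and 25.6 FPKM in controls 1 to 3 and 9.45, 8.58 and 8.64 in treated 1 to 3, and fell (−1.56 ± 0.08, edgeR adjusted p = 1.17e-06). Its direct partner Spc25 was at 3.42, 2.4 and 3.22 FPKM in controls 1 to 3 and 4.23, 5.52 and 3.84 in treated 1 to 3, with every treated library above every control. Spc25 rose (0.55 ± 0.17, edgeR adjusted p = 0.0244), a call lost in 9 of 19 alternatives, including the fits that leave out control 2, control 3, treated 1 or treated 2 (0.38 to 0.60, adjusted p = 0.0504 to 0.12) and with the GC correction (0.21, adjusted p = 0.127). Ndc80 was at 2.0, 1.41 and 1.92 FPKM in controls 1 to 3 and 2.02, 3.04 and 1.61 in treated 1 to 3, with overlap, and its log2 fold change of 0.29 ± 0.22 did not pass (edgeR adjusted p = 0.309). Nuf2 was at 2.9, 1.7 and 2.65 FPKM in controls 1 to 3 and 1.34, 1.87 and 0.986 in treated 1 to 3. Its groups overlapped through control 2 and treated 2, and it fell (−0.82 ± 0.24, edgeR adjusted p = 0.0185), a call lost without control 1, control 3, treated 1 or treated 3 (adjusted p = 0.0584 to 0.0718).

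Cenpf and Cenpe, large proteins of the outer kinetochore, both fell from low levels. Cenpf was at 0.564, 0.394 and 0.658 FPKM in controls 1 to 3 and 0.224, 0.149 and 0.167 in treated 1 to 3, a log2 fold change of −1.60 ± 0.23. Cenpe, a kinesin that carries chromosomes to the spindle equator, was at 0.508, 0.485 and 0.897 FPKM in controls 1 to 3 and 0.329, 0.421 and 0.266 in treated 1 to 3. Its treated libraries were just below its controls, and the log2 fold change of −0.92 ± 0.27 (edgeR adjusted p = 0.0177) was not called without control 3, treated 1 or treated 3 (adjusted p = 0.0624 to 0.0727). The scaffold gene Knl1, which docks the Bub proteins, was at 0.206, 0.134 and 0.195 FPKM in controls 1 to 3 and 0.261, 0.284 and 0.232 in treated 1 to 3. All treated values were above all controls, and the log2 fold change of 0.51 ± 0.23 did not pass (edgeR adjusted p = 0.102).

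Of 6 genes of anaphase control and cohesion protection, 4 fell, and they included the most abundant members. Cdc20 was at 169, 186 and 181 FPKM in controls 1 to 3 and 67.3, 63.0 and 66.8 in treated 1 to 3, and fell (−1.48 ± 0.08, edgeR adjusted p = 1.81e-06). Its row overlaps Elovl1 on the opposite strand, at a mean of 28.4 FPKM, and no source used here says whether the counting used the strand. Ube2c, the ubiquitin-conjugating enzyme of the anaphase-promoting complex, was at 136, 136 and 125 FPKM in controls 1 to 3 and 48.5, 46.2 and 46.6 in treated 1 to 3, a log2 fold change of −1.53 ± 0.08. Securin (Pttg1), the inhibitor of separase, was at 61.0, 65.2 and 61.4 FPKM in controls 1 to 3 and 18.8, 19.9 and 18.6 in treated 1 to 3. It fell (−1.75 ± 0.08, edgeR adjusted p = 6.71e-07), and separase itself (Espl1) fell from 16.2 ± 1.54 to 6.0 ± 0.365 FPKM (−1.47 ± 0.10). The shugoshins, which shield centromeric cohesin, did not pass. Sgo1 was at 2.44 ± 0.566 and 2.18 ± 0.321 FPKM (−0.20 ± 0.19; lower after the GC correction, −0.54). Sgo2a was at 0.525 ± 0.124 and 0.689 ± 0.291 FPKM (0.35 ± 0.29), and reads may be shared with its close copy Sgo2b.

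Condensin I was divided in the same way. Its non-SMC subunits Ncapd2 and Ncaph fell: Ncapd2 was at 44.7, 51.4 and 49.0 FPKM in controls 1 to 3 and 18.9, 16.3 and 16.7 in treated 1 to 3 (−1.52 ± 0.09), and Ncaph fell from 23.6 ± 0.298 to 9.28 ± 0.278 FPKM (−1.38 ± 0.07). Ncapg, the other non-SMC subunit, was at 1.83, 1.42 and 1.84 FPKM in controls 1 to 3 and 2.12, 3.88 and 1.76 in treated 1 to 3. Treated 2 stood above all other libraries, and the log2 fold change of 0.57 ± 0.25 did not pass (edgeR adjusted p = 0.0919), though it did without treated 3 (0.77). After the GC correction Ncapg was called lower, at −0.55 (adjusted p = 0.00434).

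The SMC subunits, the ATPases that condensin I and II share, were not lower. Smc4 was at 3.0, 1.86 and 3.27 FPKM in controls 1 to 3 and 4.53, 5.73 and 3.09 in treated 1 to 3. The groups overlapped through control 3 and treated 3, and Smc4 rose (0.68 ± 0.23, edgeR adjusted p = 0.0355). That call was lost in 10 of 19 alternatives, with the value at −0.25 after the GC correction and at 0.27 without both libraries numbered 2. It was also lost without control 1, control 2, treated 1 or treated 2 (adjusted p = 0.0619 to 0.173). Smc2 was at 0.894 ± 0.335 and 1.41 ± 0.472 FPKM (0.61 ± 0.30, edgeR adjusted p = 0.118; 0.92 and called without control 3). Top2a, the topoisomerase that untangles sister chromatids, was at 9.07, 5.93 and 7.96 FPKM in controls 1 to 3 and 5.13, 7.2 and 3.67 in treated 1 to 3. Treated 2 was within the control range, and the log2 fold change of −0.56 ± 0.21 did not pass (edgeR adjusted p = 0.0514). It was called lower without control 2 (−0.71), without treated 2 (−0.84), without both (−0.96, adjusted p = 0.00102) and after the GC correction (−0.98). Mki67, the proliferation antigen that coats mitotic chromosomes, was at 1.95, 1.91 and 2.24 FPKM in controls 1 to 3 and 0.766, 0.832 and 0.601 in treated 1 to 3, a log2 fold change of −1.51 ± 0.14 with no overlap.

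Of the 6 spindle and microtubule binding genes, 4 fell. Gtse1, which binds microtubule ends, was at 42.5, 48.7 and 48.9 FPKM in controls 1 to 3 and 18.2, 17.9 and 18.4 in treated 1 to 3 (−1.40 ± 0.09). Aspm, a protein of the spindle poles, fell from 0.532 ± 0.106 to 0.236 ± 0.0813 FPKM (−1.21 ± 0.26), Dlgap5, which stabilises the fibres near chromosomes, from 8.22 ± 0.641 to 4.4 ± 0.801 FPKM (−0.94 ± 0.12), and Ckap2 from 15.9 ± 0.618 to 8.98 ± 1.61 FPKM (−0.86 ± 0.12). Hmmr, a spindle assembly factor, was at 1.3, 1.43 and 1.82 FPKM in controls 1 to 3 and 1.97, 3.47 and 1.43 in treated 1 to 3 and did not pass (0.55 ± 0.28, edgeR adjusted p = 0.138). Treated 2 was again the highest library, and Hmmr passed as higher without treated 3 (0.78). Nusap1, a microtubule bundling protein, was at 1.75, 1.63 and 2.16 FPKM in controls 1 to 3 and 2.22, 3.41 and 2.24 in treated 1 to 3, with every treated value above every control, and did not pass either (0.47 ± 0.20, edgeR adjusted p = 0.0764). Its row overlaps Oip5 on the opposite strand, at a mean of 5.76 FPKM, which is above all of these Nusap1 values. Whether the counting used the strand is not given, and the part of Oip5 reads in the Nusap1 values was not tested.

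For the central spindle and cytokinesis, 4 of 5 genes fell. Racgap1, part of the centralspindlin complex, was at 46.7, 50.0 and 50.4 FPKM in controls 1 to 3 and 19.8, 19.8 and 19.3 in treated 1 to 3, a log2 fold change of −1.36 ± 0.08. Anln (anillin), a scaffold of the contractile ring, was at 15.4, 12.7 and 14.9 FPKM in controls 1 to 3 and 6.45, 7.3 and 5.12 in treated 1 to 3, a log2 fold change of −1.22 ± 0.11. Prc1, which crosslinks central spindle microtubules, fell from 8.69 ± 1.25 to 5.18 ± 0.883 FPKM (−0.78 ± 0.12). Ect2, the exchange factor that activates RhoA at the equator, was at 4.1, 2.73 and 3.98 FPKM in controls 1 to 3 and 2.6, 2.77 and 1.82 in treated 1 to 3. The groups met at control 2 and treated 2, and the call (−0.62 ± 0.18, edgeR adjusted p = 0.0179) was lost without control 1, control 3 or treated 3, with library totals only and with upper-quartile scaling (adjusted p = 0.0528 to 0.0663). Cep55, the abscission scaffold, was at 3.66 ± 0.582 and 3.76 ± 1.27 FPKM, with a log2 fold change of 0.0039 ± 0.22, and was called lower after the GC correction at −0.40 (adjusted p = 0.04), a call lost when the replicate block was added to it (−0.42, adjusted p = 0.0549).

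The members that did not fall had AT-rich transcripts, from 36.0% GC in Cenpk to 45.1% in Mad2l1. Some members that fell lay in this range too: Ect2 (41.8%), Ckap2 and Nuf2 (42.0%), Anln (43.5%), Zwilch (43.7%), Cenpe (44.75%) and Aspm (44.81%). GC content, as the mean over a gene's transcripts, ran from 42.0% to 56.8% (median 53.0%) in the 23 members at or above a mean of 10 FPKM and from 36.0% to 48.3% (median 43.7%) in the other 27. Across the 50 members, log2 fold change and GC content had a Pearson correlation of −0.78 and a Spearman correlation of −0.80. GC content and log2 mean FPKM were themselves correlated (Pearson 0.77), and all members share the same 6 libraries. Over all 15760 tested rows with a GC value the Spearman correlation was −0.26. With an edgeR fit that removes a smooth trend with GC content in each library, 39 of the 50 were called lower and 0 higher, against 25.3% and 24.8% of rows, and the median became −1.22. All 33 that fell without the correction also fell with it, and Cenpk, Cep55, Mad2l1, Ncapg, Sgo1 and Top2a were added. Spc25 and Smc4 were no longer called. After the correction the Pearson correlation with GC content across members was −0.50.

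**Figure D3:**
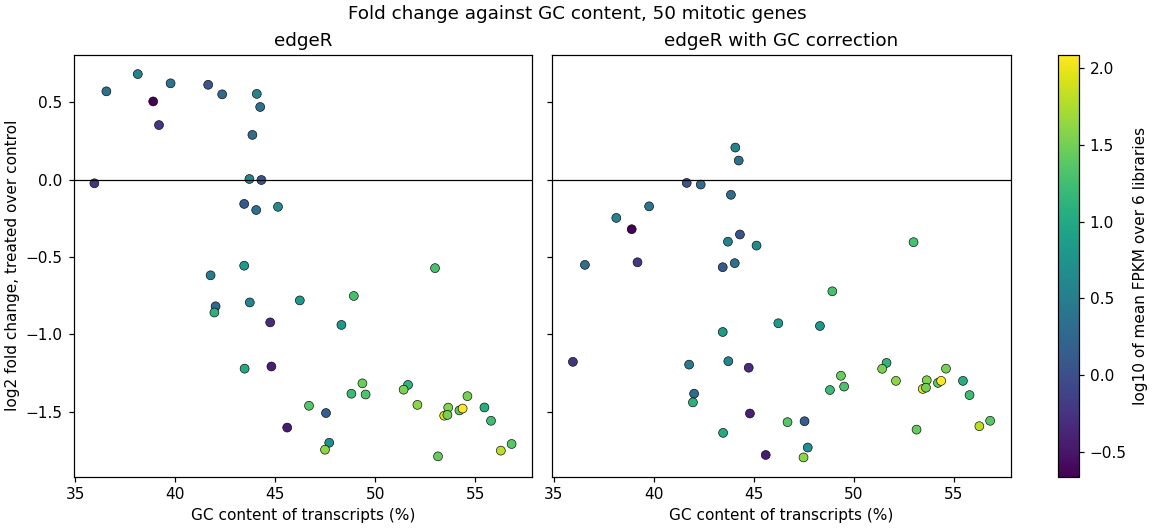
Log2 fold change (treated over control) against the GC content of transcripts in percent for the 50 genes, without (left) and with (right) the GC correction, with colour for log10 of the mean FPKM. Points above 0 on the left lie at GC contents under 45%, and on the right only Spc25 and Nusap1 are above 0.

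GC content did not separate the members fully. Between 43% and 45% GC, Anln fell (−1.22 ± 0.11) at a GC content of 43.5%, and Nusap1 was at 0.47 ± 0.20 with 44.2%. After the correction these were −1.64 and 0.12. The overlap of the Nusap1 row with Oip5, given above, applies to both of its values. Cenpa, at 53.0% GC, and Bub3, at 48.9%, fell less than other abundant members both without the correction and with it (−0.40 and −0.72).

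The libraries numbered 2 stood apart in the low members. Treated 2 was the highest treated library in 25 of the 27 members under a mean of 10 FPKM, against 46.8% of all tested rows at that level, and control 2 was the lowest control in 21 of 27, against 45.9%. The median of log2(FPKM over mean control FPKM) in these members was −0.23, 0.29 and −0.40 in treated 1 to 3, and 0.15, −0.26 and 0.13 in controls 1 to 3. In the 23 abundant members the treated medians were −1.37, −1.43 and −1.44. The part of GC content, depth or the libraries numbered 2 in the low members' values was not tested beyond these fits. Without both libraries numbered 2, 35 members fell and 0 rose, against 20.1% and 18.4% of rows, and all 33 were among the 35. With the GC correction as well, 38 fell and 0 rose, against 20.8% and 20.2%. At an unadjusted p under 0.05 these edgeR fits also had 0 members higher, while DESeq2 on all 6 libraries called 4 higher at the adjusted threshold. Among all rows DESeq2 called 3867 higher and 3829 lower.

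**Figure D4:**
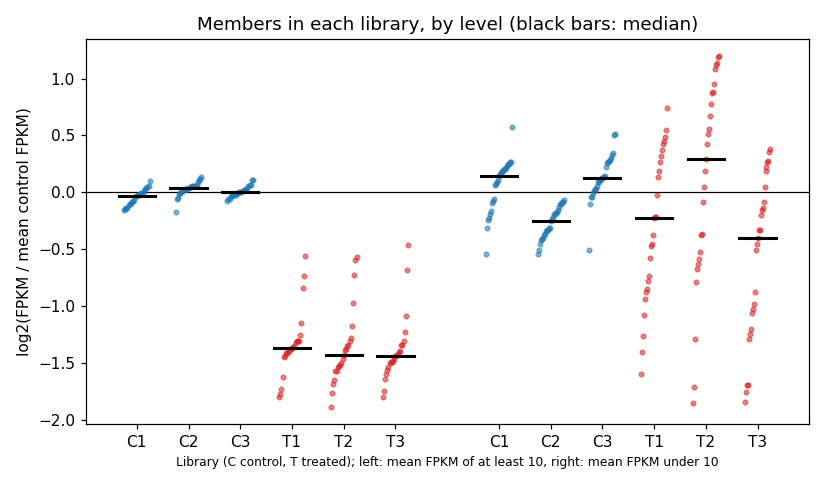
Log2 of FPKM over the mean control FPKM for each member (points) in each library, control in blue and treated in red, with black bars for medians; members with a mean of at least 10 FPKM are on the left and the others on the right. The 3 treated medians on the left lie between −1.44 and −1.37, and on the right treated 2, at 0.29, is apart from treated 1 and 3.

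Other genes of the same pathway are given from lists drawn up from general knowledge, also with earlier results of these data known. The counts for these lists stand beside 23.5% of all tested rows called lower and 23.0% called higher. Counts after the GC correction stand beside 25.3% and 24.8%. Among 11 regulators of late cell cycle transcription, 5 fell and 2 rose, with a median of −0.26. Mybl2 (B-Myb), the partner of MuvB ahead of FoxM1, fell from 20.8 ± 0.628 to 4.46 ± 0.163 FPKM (−2.26 ± 0.08), which is a larger fall than that of any of the 50 members. E2f4, a repressor of the same genes in resting cells, fell (−0.56 ± 0.07), as did its partner Tfdp1 (−0.52 ± 0.09). Of 22 genes of mitotic entry, 19 fell and 0 rose, with a median of −0.90. The cyclin B genes fell together, Ccnb1 from 17.4 ± 0.713 to 6.32 ± 1.05 FPKM (−1.50 ± 0.11) and Ccnb2 from 43.0 ± 2.59 to 15.6 ± 1.83 FPKM (−1.50 ± 0.11), and the kinase subunit gene Cks1b fell (−1.06 ± 0.08).

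Of 9 other checkpoint genes, 6 fell and 0 rose (median −0.95), including Mad1l1 (−1.29 ± 0.09), Zw10 (−1.06 ± 0.11) and Trip13 (−1.52 ± 0.19). These serve Mad2 recruitment, dynein recruitment and Mad2 remodelling. Of 27 other centromere and kinetochore genes, 14 fell and 1 rose, with a median of −0.34. The inner kinetochore gene Cenpt fell from 21.8 ± 1.15 to 10.1 ± 0.342 FPKM (−1.15 ± 0.09), and Hjurp, the chaperone that loads Cenpa, from 29.8 ± 1.16 to 16.1 ± 0.657 FPKM (−0.93 ± 0.08). Pmf1, a subunit of the MIS12 complex, fell (−1.11 ± 0.09). Of 5 other condensation genes 4 fell and 1 rose, and all 5 fell after the GC correction. The condensin II subunit genes Ncapd3 (−1.02 ± 0.13) and Ncaph2 (−0.49 ± 0.09) fell, and so did the chromokinesin gene Kif4 (−0.70 ± 0.20).

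Of 17 genes of the anaphase-promoting complex, 10 fell and 1 rose, with a median of −0.48. Its subunit genes Anapc5, Anapc11 and Anapc1 were at −1.08 ± 0.07, −0.90 ± 0.08 and −0.97 ± 0.09. Of 19 other spindle and cytokinesis genes, 14 fell and 1 rose (median −0.84), among them Tacc3 (−1.22 ± 0.07) and Spag5 (−1.40 ± 0.09), which act at spindle microtubules, and Arhgef2 (−0.99 ± 0.08), an exchange factor for RhoA. Of 14 cohesin genes, 3 fell and 4 rose, with a median of 0.07, shares near those of all tested rows. After the GC correction 8 fell and 4 rose, against 25.3% and 24.8% of rows, with a median of −0.50. Cdca5 (sororin), which guards cohesion, fell from 23.9 ± 2.04 to 11.1 ± 0.539 FPKM (−1.14 ± 0.10), and the ring subunit gene Rad21 fell (−0.64 ± 0.11). Stag2, a cohesin subunit, rose from 0.50 ± 0.143 to 2.42 ± 0.823 FPKM (2.24 ± 0.27; 1.55 after the GC correction).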

How the data were processed

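The authors deposited 1 table with an FPKM value and an estimated count per gene and library, per the file headers. The counts are whole numbers, and the value 4 was seen 4054 times while its neighbouring values averaged 2539.5, so they are not plain read counts. HISAT2 2.2.1, StringTie 2.1.6, cutadapt 1.9, edgeR and DESeq2 are listed, per the submitters' processing notes, with no roles; build, annotation and strand setting are not given in the sources that were used. Only 2.06% of 23981 matched rows start where GENCODE M21 (GRCm38) has them, so coordinates of the file and of RefSeq promoters are not on 1 build.

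Groups and library numbers come from the sample titles. The test was edgeR 4.0.16 (R 4.3.3), quasi-likelihood, 2-sided, with its default filter on low counts, TMM scaling and Benjamini-Hochberg adjustment over 16212 rows, threshold 0.05; standard errors are |log2 fold change| divided by the square root of F. GC content is the mean over GENCODE M21 transcripts, and its correction is a loess fit per library (span 0.4, rows with a mean count of at least 50). Alternatives were DESeq2 1.42.0, limma 3.58.1 on log2(FPKM + 1) or log2(FPKM + 0.1), other scalings and filters, a replicate block, counts divided by 4, and libraries left out. On simulated counts for treated against control (15922 genes, 99 changed 2-fold and 99 changed 4-fold) edgeR recovered 90.9% and 100% and called 8 unchanged genes. The simulation gave every gene the same dispersion, and it changed far fewer genes than the 7548 rows called in the data. In the treated libraries the median SD was 28.8% of the mean in the low members and 3.945% in the abundant ones. The recovery therefore cannot be carried over to the low members, and the simulation does not show that it holds for the abundant ones. Members and lists were chosen with earlier results of these data known. All 50 members are named, and up to 3 genes per other list by smallest p. Promoters are printed for the 4 lowest called members and the 2 highest where an entry exists, and for Cdc20 and Ube2c, added outside this rule after their windows were seen. Columns of per-sample values left unused numbered 0.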

Additional observations from a re-analysis of the deposited data

How the results depend on the processing

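The count of members called lower was 30 to 39 of those tested in all 20 alternatives except the limma fit at a mean FPKM of at least 5, which tests 27 members and called 26. The count called higher, 2, rested on low members. It was 4 with DESeq2 and with upper-quartile scaling, 1 over every row above 0, and 0 with the GC correction, with the GC correction and replicate block, with the GC correction and both libraries numbered 2 left out (an alternative added after the data were seen), without both libraries numbered 2, and in limma at a mean FPKM of at least 5. Among all rows, 3867 were called higher with DESeq2, 4688 with upper-quartile scaling and 3469 over every row above 0. With 1 library left out the count of members called higher ran from 0 to 5, and the count called lower from 30 to 35. Rows called higher in those fits numbered 2832 to 3572, and rows called lower 3241 to 3720. The median of −0.93 was −0.79 in limma at a mean FPKM of at least 1 and −1.31 at 5 (fewer members tested), −0.81 with upper-quartile scaling, −1.22 with the GC correction, −1.21 with the correction and the replicate block and also with the correction and both libraries numbered 2 left out, −1.24 without both libraries numbered 2, and −1.11 to −0.81 with 1 library left out. Over all rows 7548 changed, 4363 in limma at a mean FPKM of at least 5, where fewer rows are tested, and 6073 to 7264 with 1 library left out; upper-quartile scaling called 4688 higher and 3028 lower, against 3735 and 3813, and moved the median of all rows from 0.06 to 0.18. Relative to these medians the members' own was −0.99 under both scalings.

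With the GC correction, with it and the replicate block, and with it and both libraries numbered 2 left out, Ncapg changed sign from 0.57 to −0.55, −0.56 and −0.61, and Smc4 from 0.68 to −0.25, −0.24 and −0.32. Cep55 went from 0.0039 to −0.40 with the correction and to −0.55 without both libraries numbered 2 as well. Bub1, Knl1, Ndc80, Sgo2a, Hmmr and Smc2, called in neither fit, also changed sign, to −0.17, −0.32, −0.10, −0.53, −0.03 and −0.02 with the correction. The cause was not tested. For 35 members no alternative changed the side of the threshold or the direction of a call. These include Ttk, Cenpi, Knl1, Ndc80 and Sgo2a, which were called in no fit and whose fold changes took both signs across alternatives. The called members Cenpe, Nuf2, Ect2, Spc25 and Smc4 are not among them, since each lost its call in some alternatives. The sample titles do not say whether numbers 1 to 3 pair the libraries. Deviations of same-numbered libraries from their group means had correlations of 0.04, −0.10 and 0.0065. No control correlated best with its own number, and of the treated libraries only treated 1 did. With 3 libraries per group, such values cannot show whether same-numbered libraries were handled together. With the replicate block 33 members were called lower and 0 higher. Of 16212 rows tested in that fit 6275 changed, 3205 lower and 3070 higher. The members under 1 FPKM rest on few counts, such as 99 to 185 estimated counts per library for Knl1, and with all counts divided by 4 the members called lower were 34.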

Other observations

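Ratios of FPKM between subunits of 1 complex, computed within each library, describe how partners moved. The 5 pairs were chosen after the values were seen. Spc24 over Spc25 was 7.41, 10.7 and 7.96 in controls 1 to 3 and 2.23, 1.56 and 2.25 in treated 1 to 3. Ncaph over Ncapg in condensin I was 12.9, 16.5 and 13.0 and then 4.52, 2.39 and 5.13. Bub1b over Bub1 went from 14.2, 21.1 and 15.4 to 4.48, 2.84 and 4.98. Each of these had no overlap between groups, with an exact 2-sided permutation p of 0.1, the smallest that 3 against 3 libraries allow (0.167 adjusted over 5 pairs). The adjustment does not cover the choice of pairs by their values, so these p-values do not test whether partners moved unevenly. The less abundant partner of each pair also has the more AT-rich transcripts, at 44.1%, 36.6% and 39.8% GC against 55.8%, 48.8% and 46.7%. With the GC correction the partners' log2 fold changes lay closer together: Spc24 and Spc25 were at −1.39 and 0.21 (−1.56 and 0.55 without it), Ncaph and Ncapg at −1.36 and −0.55 (−1.38 and 0.57), and Bub1b and Bub1 at −1.57 and −0.17 (−1.46 and 0.62). In the passenger complex, Aurkb over Incenp was 1.45, 1.6 and 1.57 in control and 1.58, 1.6 and 1.5 in treated libraries (exact permutation p = 0.6, adjusted 0.6), and these genes have 53.7% and 54.2% GC. Aurkb over Birc5 was 1.19, 1.4 and 1.33 and 1.2, 1.15 and 1.17 (exact permutation p = 0.2, adjusted 0.25), and these genes have 53.7% and 49.4% GC.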
